A study of Mus musculus with 2 samples.

Results

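Regulatory T cells of a mouse melanoma were read out of a single-cell RNA library as barcodes that carried CD3 and Foxp3 transcripts and lacked CD8 and macrophage transcripts. The gate kept 85 of 481 T cells and of 4236 cells in all. A barcode was a cell with at least 1000 unique molecular identifiers (UMIs, counted RNA molecules) from genes, at least 500 genes and at most 10% mitochondrial UMIs. It was a T cell with at least 3 UMIs of Cd3d, Cd3e and Cd3g together and under 1000 counts per 1000000 UMIs (CPM) of C1qa, C1qb and C1qc, the complement genes of macrophages. It was a regulatory T cell with at least 1 Foxp3 UMI and at most 1 UMI of Cd8a and Cd8b1. The cells were chosen by these measured counts, so their levels are a description and are not read as results.

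The cells came from a B78ChOVA tumour, a melanoma line injected under the skin of the flank in Matrigel and harvested after 16 days. Live sections of about 160 µm were marked with spatial DNA barcodes, dissociated and sorted for immune cells, and 1 gene expression library and 1 library of spatial barcodes were made from the same cells. There was no untreated group, and neither the host strain and genotype nor the number of tumours is given in the sources used here. The comparisons are therefore between sets of cells of 1 sample. They carry no replicate check and no test, and all intervals are exact 95% intervals that cover counting error only.

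Regulatory T cells are CD4 T cells that hold other immune cells in check. The transcription factor FOXP3 sets their programme, which includes the high-affinity IL-2 receptor chain CD25 (Il2ra), the inhibitory receptor CTLA-4 and the TNF receptor family members OX40 (Tnfrsf4) and GITR (Tnfrsf18). In tumours they are often activated, take up IL-2 and produce suppressive cytokines and tissue repair factors, and they typically make little of the effector cytokines of other T cells.

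Every set below passed the same CD3 and C1q gates. The 84 Foxp3-negative CD4 T cells had a Cd4 UMI, no Foxp3 UMI and at most 1 CD8 UMI. The 219 CD8 T cells had at least 2 CD8 UMIs and no Foxp3 UMI, and none of them had a Cd4 UMI, which the gate did not ask for. No doublet caller was run. The C1q limit left out barcodes at or above 1000 CPM of these genes, and barcodes with other macrophage RNA remained. The 89 undefined T cells had neither Cd4 nor Foxp3 UMIs and at most 1 CD8 UMI, and 4 cells carried both Foxp3 and at least 2 CD8 UMIs. Median depth was 8826 UMIs in regulatory T cells, 5504 in Foxp3-negative CD4 T cells, 8721 in CD8 T cells, 4913 in undefined T cells and 28061 in 2438 macrophages (C1q at or above 1000 CPM with no CD3 UMI). Depth within the regulatory T cells ran from 1094 to 65129 UMIs.

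Some of the CD8 T cells stood apart. A UMI of the reporter transcript dsredexpress1 was found in 39 of the 219 and one of Xist, the X inactivation RNA, in 38, with both in 36 cells. No regulatory, Foxp3-negative CD4 or undefined T cell had either. The 41 CD8 T cells with at least 1 of these transcripts had a median of 18048 UMIs, against 6602 in the other 178. The origin of these cells is not given in the sources used here, so the comparisons with CD8 T cells are also given without them where that ends a 2-fold call or moves a value by over 1.5 times.

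The 85 cells were 17.7% of the T cells (interval 14.4% to 21.4%) and 2.01% of all kept cells. Against the Foxp3-negative CD4 T cells they made up 50.3% (42.5% to 58.1%) of the 2 sets combined. A T cell whose Foxp3 transcripts were missed stays in the other sets. With each cell thinned to 2000 UMIs, a Foxp3 UMI was left in 53.0% of the 83 regulatory T cells deep enough to be thinned. Foxp3 lies on chromosome X from 7573644 to 7595245 on the forward strand in the GENCODE annotation of mm10.

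The gate rested on few molecules. Foxp3 UMIs per cell had a lowest value of 1, a median of 2 and a highest value of 17: 25 cells held exactly 1, 28 held 2 to 3 and 32 held 4 or more. The cells with 1 Foxp3 UMI were shallower, at a median of 5308 UMIs against 15068 in those with 4 or more. CD3 UMIs per cell had a median of 30 and C1q a median of 115 CPM. A Cd4 UMI was seen in 52 of the 85 cells (61.2%) and a single CD8 UMI in 4. In macrophages, which should lack Foxp3, 8 of 2438 barcodes had a Foxp3 UMI (0.328%) at the greater depth given above.

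**Figure D1:**
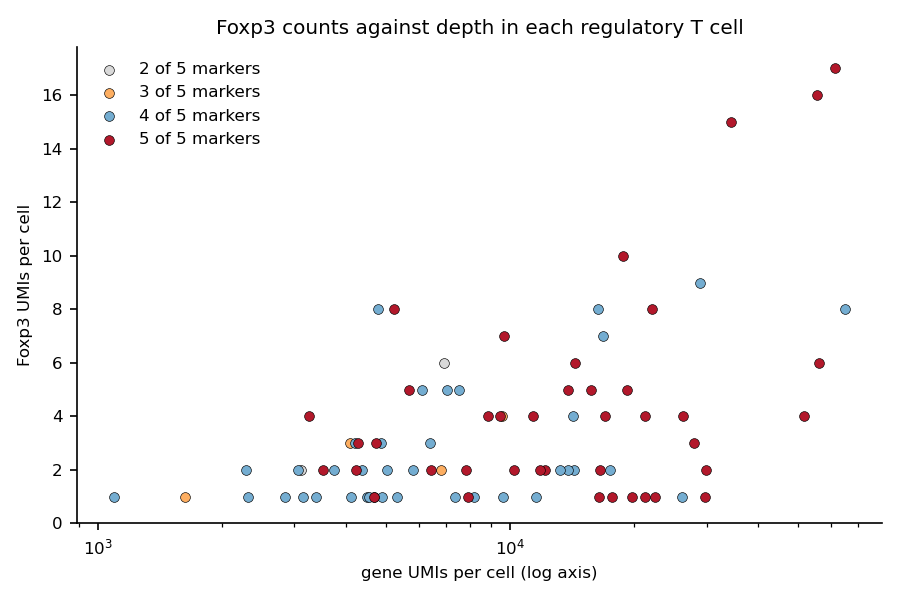
Foxp3 UMIs (vertical axis) against gene UMIs (horizontal log axis) for each of the 85 regulatory T cells, coloured by how many of Il2ra, Ikzf2, Tnfrsf4, Tnfrsf18 and Ctla4 had a UMI. Foxp3 counts run from 1 to 17, and 24 of the 25 cells with a single Foxp3 UMI carry at least 4 of the other markers.

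The 5 other markers of regulatory T cells, which the gate did not use, were found in most of the cells. At least 4 of Il2ra, Ikzf2, Tnfrsf4, Tnfrsf18 and Ctla4 were detected in 79 of 85 regulatory T cells (92.9%), against 20 of 84 Foxp3-negative CD4 T cells (23.8%), 41 of 219 CD8 T cells (18.7%) and 2 of 2438 macrophages (0.0820%). Cells with 1, 2 to 3 and 4 or more Foxp3 UMIs carried at least 4 markers in 24 of 25, 25 of 28 and 30 of 32 cases. At 2000 UMIs per cell the shares with at least 4 markers were 53.0% (41.7% to 64.1%) in 83 regulatory T cells, 4.82% (1.33% to 11.9%) in 83 Foxp3-negative CD4 T cells and 1.37% (0.283% to 3.95%) in 219 CD8 T cells, with 2 and 1 shallower cells of the first 2 sets left out. Of the undefined T cells, 9 of 89 (10.1%) had at least 4 markers at full depth. At 2000 UMIs 6 of 86 did (6.98%, 2.60% to 14.6%), with 3 shallower cells left out. Just outside the gate, 6 cells with a Cd4 UMI and no Foxp3 UMI carried all 5 markers, with 235 CPM of Ikzf2 against 736 in the gated cells.

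In summed counts Ikzf2, which encodes the FOXP3 partner Helios, set the regulatory T cells apart most among these markers. Its level, the summed UMIs of a set as CPM, was 736 (interval 687 to 787) against 101 in Foxp3-negative CD4 T cells, 88.4 in CD8 T cells and 2.24 in macrophages. It was detected in 83 of the 85 cells, with at most 32 UMIs in one cell. The ratio was 7.32 (5.84 to 9.27) over Foxp3-negative CD4 T cells and 8.32 (7.25 to 9.58) over CD8 T cells. Over CD8 T cells Tnfrsf4 came first with cells weighted equally and with cells thinned to 2000 UMIs, at 14.7 and 15.6.

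Ctla4 reached 728 CPM, 3.87 times (3.26 to 4.62) the level of the Foxp3-negative CD4 T cells and 6.33 times (5.58 to 7.19) that of the CD8 T cells. Il2ra was the least abundant of the 5 at 114 CPM in 45 of 85 cells, with ratios of 4.75 (2.95 to 8.02) and 4.27 (3.21 to 5.70) over the same sets. The OX40 gene Tnfrsf4 was the most abundant at 1003 CPM, with ratios of 2.28 (2.03 to 2.58) and 6.01 (5.41 to 6.68). The GITR gene Tnfrsf18 was shared most with the CD4 T cells: its 652 CPM was 1.68 times (1.47 to 1.92) their level and 3.84 times (3.43 to 4.30) the CD8 level.

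**Figure D2:**
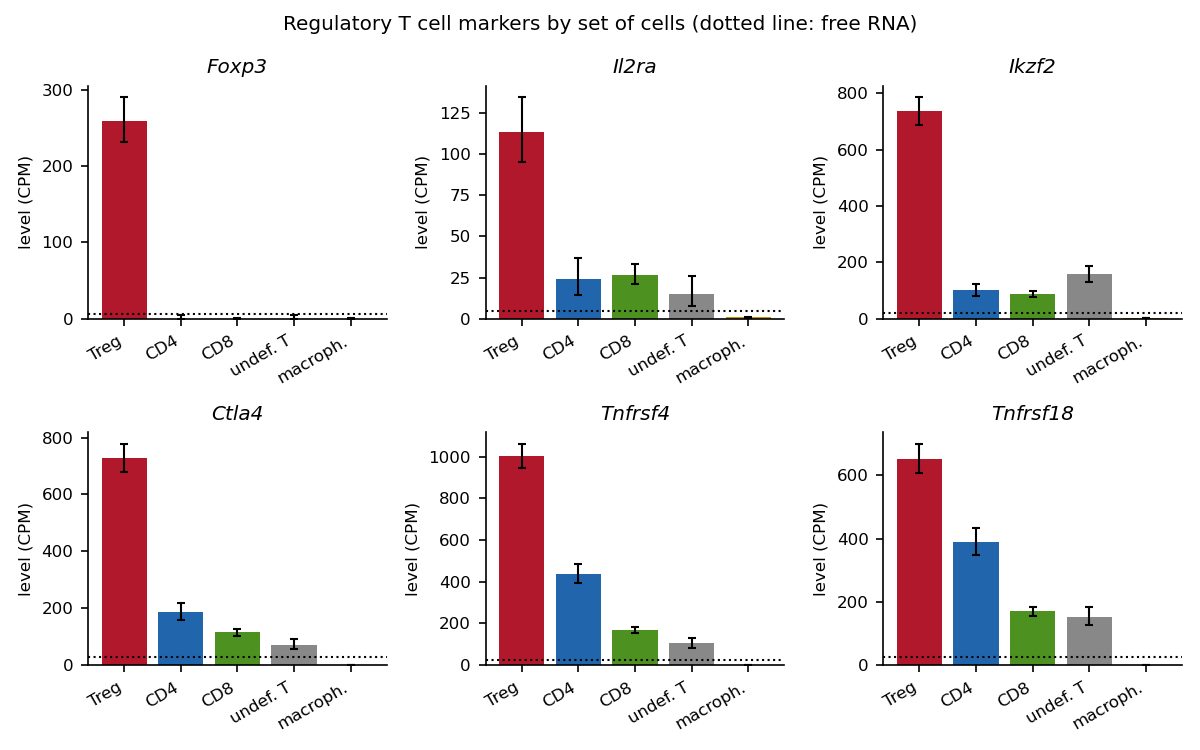
Levels in CPM of Foxp3 and 5 other markers in 5 sets of cells (linear axes from 0, bars with exact Poisson intervals of the summed counts), with the level in barcodes of 10 to 100 UMIs as a dotted line for free RNA. Foxp3 is absent from the other T cell sets by their definition, and each of the other markers is highest in the regulatory T cells.

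The comparison with Foxp3-negative CD4 T cells asks what separates the regulatory T cells from their nearest relatives. A gene was compared where both sets together held at least 30 UMIs and the smaller was expected to hold at least 3, and a gene was counted as different at a ratio of 2 or more or of 0.5 or less. Of 6451 genes compared with the CD4 T cells, 8.88% passed, 4.56% higher and 4.32% lower. Of 8165 compared with the CD8 T cells, 9.75% passed, 5.22% higher and 4.53% lower. Over all 9148 genes compared with the 396 other T cells, 10.6% passed, 3.31% higher and 7.31% lower. The median ratio over all genes was 1.02, 1.04 and 1.01 in that order. Without the 41 CD8 T cells with Xist or dsredexpress1, 720 of 7596 genes passed against CD8 T cells, in place of 796 of 8165. All 5 identity genes were higher against the other T cells, at a median ratio of 4.76. Regulatory T cells enter all these comparisons, so the ratios share them.

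Several genes of suppression were higher in the regulatory T cells. Against Foxp3-negative CD4 T cells 4 of 10 measured genes were higher and none lower, at a median ratio of 1.66, and against CD8 T cells 6 of 10 were higher and 1 lower, at a median of 2.42. Il10, the suppressive cytokine, was at 48.2 CPM in 20 of 85 cells, 2.24 times (1.30 to 4.04) the level of the CD4 T cells and 16.3 times (8.0 to 37.5) that of the CD8 T cells. One CD4 T cell held 44.4% of the Il10 UMIs of its set, and with every cell weighted equally the first ratio was 1.70. Areg, the epidermal growth factor family ligand linked to tissue repair, was at 80.0 CPM in 28 cells, with ratios of 2.39 (1.55 to 3.79) and 40.6 (18.0 to 113), the latter against 6 UMIs in all 219 CD8 T cells and 83.7 without the cells with Xist or dsredexpress1.

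Fgl2, a secreted suppressive fibrinogen-like protein that macrophages also make, was at 203 CPM, with ratios of 2.57 (1.95 to 3.43) and 2.72 (2.26 to 3.28). The ectoenzyme genes Nt5e (CD73) and Entpd1 (CD39), which turn extracellular ATP into adenosine, had ratios of 6.11 (3.44 to 11.3) and 2.11 (1.43 to 3.12) over CD8 T cells. Over CD4 T cells they were 1.68 (0.945 to 3.10) and 1.63 (0.972 to 2.83), with intervals that include 1. The Entpd1 ratio over CD8 T cells was 1.86 among cells with at most 5% mitochondrial UMIs. Ebi3, a chain of IL-35, was 5.65 times (3.21 to 10.3) the CD8 level and 0.893 times (0.551 to 1.46) the CD4 level. Tgfb1 differed little, at 226 CPM and ratios of 0.960 and 1.20. Granzyme B (Gzmb) stood between the other sets: its 173 CPM was 2.54 times (1.88 to 3.47) the CD4 level and 0.200 times (0.172 to 0.231) the CD8 level.

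Lrrc32, which tethers latent TGF-beta to the surface of regulatory T cells, and Itgb8, an integrin chain that activates it, had too few UMIs to be compared with either set. Lrrc32 had 21 UMIs in 16 regulatory T cells, 3 in the CD4 T cells and 1 in the CD8 T cells. Itgb8 had 16 UMIs in 13 regulatory T cells against 5 and 4.

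Detection in the same cell was counted for 4 genes that were higher than in both sets. It was not tested against the detection share of each gene alone. Of Itgae, Areg, Il10 and Klrg1, none was detected in 16 regulatory T cells, 1 in 37, 2 in 27 and 3 in 5, and no cell had all 4. Median depth was 7086.5 UMIs in cells with none, 7033 in those with 1, 11393 in those with 2 and 9695 in those with 3, so a missed transcript cannot be told apart from a gene that is off in these counts.

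Both chains of the integrin of epithelial retention were higher than in either set. Itgae (CD103), which pairs with Itgb7 to bind E-cadherin, lies on chromosome 11 from 73090583 to 73147446. It was at 99.8 CPM (82.5 to 119.7) in 36 of 85 regulatory T cells, against 20.3 CPM in Foxp3-negative CD4 T cells, 3.62 in CD8 T cells and 0.887 in macrophages. The ratios were 4.91 (2.94 to 8.71) and 27.6 (14.9 to 56.9), and thinned to 2000 UMIs it was detected in 22.9% of regulatory T cells, 4.82% of CD4 T cells and 2.28% of CD8 T cells. Itgb7 was at 423 CPM in 79 cells, with ratios of 2.46 (2.04 to 2.98) and 4.09 (3.54 to 4.73).

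Cxcr6, the receptor for the membrane chemokine CXCL16, ran the other way. It was at 40.4 CPM (29.7 to 53.8) in 21 of 85 regulatory T cells against 518 CPM in Foxp3-negative CD4 T cells and 373 CPM in CD8 T cells, which is 12.8-fold and 9.21-fold lower. At 2000 UMIs per cell it was detected in 7.23% of regulatory T cells, 37.3% of CD4 T cells and 42.5% of CD8 T cells. In all, 3 of 16 measured chemokine and homing receptors were higher and 5 lower than in CD4 T cells, at a median ratio of 0.9503, and 5 were higher and 3 lower than in CD8 T cells, at a median of 0.954. Without the cells with Xist or dsredexpress1 the second count was 3 higher and 4 lower.

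Of the other homing genes, the integrin chain Itgb1 was lower against both sets, at ratios of 0.235 (0.188 to 0.291) and 0.308 (0.251 to 0.374). The egress receptor S1pr1 was at 0.252 (0.126 to 0.472) and 0.453 (0.237 to 0.804), the second of which was 0.593 among cells with at most 5% mitochondrial UMIs and 0.529 with C1q under 200 CPM. The inflammatory receptors Ccr2 and Cxcr3 were at 313 and 164 CPM, with ratios of 2.05 (1.79 to 2.36) and 2.17 (1.78 to 2.63) over CD8 T cells. Neither call held throughout. The Ccr2 ratio was 1.85 with at least 2 Foxp3 UMIs and 1.68 without cells with Xist or dsredexpress1, and the Cxcr3 ratio was 1.97 with C1q under 200 CPM and 1.93 without those cells. Ccr8, a receptor described on regulatory T cells of tumours, was sparse, with 11 UMIs in 9 cells, 1 in the CD4 T cells and none in the 219 CD8 T cells. Ccr4 had 8 UMIs in 6 cells.

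Of the list of TNF family receptors, ligands and NF-kB genes, 3 of 22 were higher and 5 lower than in CD4 T cells, at a median ratio of 0.914, and 4 of 21 were higher and 3 lower than in CD8 T cells, at a median of 1.34. Without the cells with Xist or dsredexpress1, 3 of 18 were higher and 1 lower than in CD8 T cells. The 5 genes below the CD4 level were the receptor gene Tnfrsf25 (death receptor 3) and the ligand genes Cd40lg, Cd70, Tnfsf8 and Tnfsf11. Tnfrsf9 (4-1BB), a costimulatory receptor induced by activation, was at 458 CPM in 71 of 85 cells, 2.44 times (2.04 to 2.93) the CD4 level and 1.52 times (1.36 to 1.69) the CD8 level. Its CD4 ratio was 1.82 with C1q under 200 CPM. Tnfrsf1b (TNF receptor 2) had ratios of 2.18 (1.48 to 3.27) and 2.30 (1.76 to 3.00), the first being 1.87 with cells weighted equally. Tnfrsf25 was at 9.47 CPM against 27.5, a ratio of 0.344 (0.151 to 0.734).

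Of the ligands, Cd40lg, the helper signal to B cells and dendritic cells, had 4 UMIs in the regulatory T cells against 42 in the Foxp3-negative CD4 T cells, a ratio of 0.0685 (0.0178 to 0.189). Tnfsf8 (CD30 ligand) had none, against 144 UMIs in the CD4 T cells and 45 in the CD8 T cells. Put at 3 counts for the whole set in place of 0, it was 66.8-fold and 5.73-fold lower. The exact interval of the ratio over CD4 T cells ran from 0 to 0.0187, so a smaller difference than 66.8-fold is within counting error. Tnfsf11 (RANKL) was at 0.0449 (0.0142 to 0.109) and Cd70 at 0.109 (0.0446 to 0.230) of the CD4 level. Lymphotoxin beta (Ltb) was not lower, at 1096 CPM in all 85 cells, 1.38 times (1.25 to 1.51) the CD4 level and 2.26 times the CD8 level.

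Inhibitory and costimulatory receptors were mixed, with 1 of 15 higher and 4 lower than in CD4 T cells at a median ratio of 0.635, and 5 of 18 higher and 5 lower than in CD8 T cells at a median of 1.14. Without the cells with Xist or dsredexpress1, 4 of 16 were higher and 4 lower than in CD8 T cells, at a median of 0.889. Klrg1, a receptor of terminally differentiated cells that binds E-cadherin, was at 40.4 CPM in 22 cells, with ratios of 8.45 (3.09 to 32.3) and 3.33 (2.12 to 5.26), the first against 4 UMIs. Icos, a CD28 family costimulatory receptor, was at 287 CPM, 1.62 times (1.33 to 1.98) the CD4 level and 4.38 times (3.67 to 5.25) the CD8 level. PD-1 (Pdcd1) was lower, at 44.8 CPM against 156 and 99.9, with ratios of 0.288 (0.204 to 0.400) and 0.448 (0.327 to 0.603). These ratios depended on the settings: with cells weighted equally they were 0.542 and 0.703, without dividing cells 0.457 and 0.688, and the CD8 ratio was 0.880 with cells thinned to 2000 UMIs. Cd226, the activating partner of TIGIT, was at 0.174 (0.0919 to 0.309) and 0.219 (0.120 to 0.372). Lag3 was within 2-fold of both sets, at 0.668 and 0.597.

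**Figure D3:**
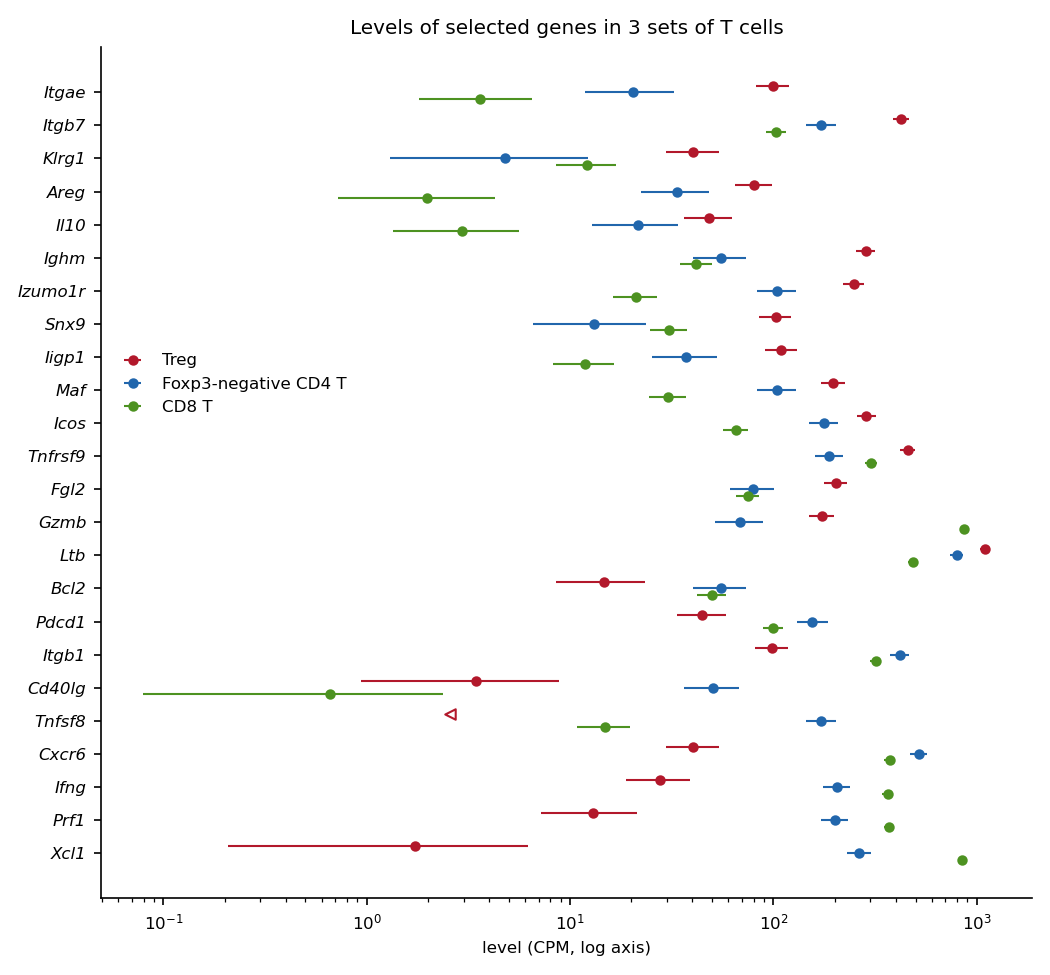
Levels in CPM (log axis) of 24 genes in regulatory T cells, Foxp3-negative CD4 T cells and CD8 T cells, with exact Poisson intervals (an open triangle marks a gene with no UMI, at the level of 3 counts). Itgae is at 99.8 CPM in regulatory T cells, 20.3 in CD4 and 3.62 in CD8 T cells, and Cxcr6 at 40.4, 518 and 373 CPM.

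Most products of helper and cytotoxic T cells were lower. Of 12 measured against CD8 T cells 11 were lower and 1 higher, at a median ratio of 0.0599, and of 9 measured against CD4 T cells 5 were lower and none higher, at a median of 0.360. The second median was 1.13 when all cells were thinned to 2000 UMIs and fewer genes could be compared. Interferon gamma (Ifng) was at 27.5 CPM in 16 of 85 cells against 205 and 364 CPM, 7.43-fold and 13.2-fold lower. Perforin (Prf1) was at 12.9 CPM against 199.9 and 369, and 1 cell held 25.7% of the Prf1 UMIs of the CD4 T cells. The share of cells with a Prf1 UMI was 14.1% in regulatory, 13.1% in CD4 and 51.1% in CD8 T cells. Against CD4 T cells the difference was thus in the level and not in the share of cells. The chemokine gene Xcl1 had 2 UMIs in the regulatory T cells against 220 and 2581, with ratios of 0.00654 (0.000787 to 0.0239) and 0.00203 (0.000246 to 0.00734). Single cells held 39.5% and 26.6% of the Xcl1 UMIs of those sets, and the second ratio was 0.00492 without the cells with Xist or dsredexpress1.

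Several factors were not seen in regulatory T cells at this depth. Il2, Il21, Csf2 and Eomes had no UMI in 1161946 UMIs, where 3 counts would be 2.58 CPM. In the Foxp3-negative CD4 T cells Il2 had 12 UMIs, Il21 had 22 and Csf2 had 131, of which 83.2% were in 1 cell. Eomes, a transcription factor of cytotoxic T cells, had 194 UMIs in the CD8 T cells. Tnf was the gene of the list that was higher than in CD8 T cells, at 2.58 (1.77 to 3.74), and 1 cell held 41.7% of its UMIs in the regulatory T cells.

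Il2 itself was not seen, and genes of its reception other than Il2ra were mostly within 2-fold of the other T cells. Il2ra, given above as higher than in both sets, is counted with the identity markers and not in this list. Of 12 measured genes of IL-2 signalling, none was higher and 1 lower than in CD4 T cells (median ratio 0.903), and 2 were higher and 1 lower than in CD8 T cells (median 1.17). The shared receptor chain Il2rb was at 327 CPM, with ratios of 1.25 (1.06 to 1.49) and 1.05 (0.933 to 1.19). The STAT5 targets Cish and Socs2 were at 2.30 (1.86 to 2.83) and 3.98 (2.39 to 6.72) of the CD8 level, with 59.3% of the CD8 Socs2 UMIs in 1 cell. The Cish ratio was 1.85 with C1q under 200 CPM. The survival gene Bcl2 was lower, at 14.6 CPM and ratios of 0.266 (0.143 to 0.472) and 0.293 (0.166 to 0.485).

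Transcription factors differed more from CD8 than from CD4 T cells, with 9 of 21 higher and 2 lower against the first (median ratio 1.69) and 2 of 19 higher and 2 lower against the second (median 1.01). Without the cells with Xist or dsredexpress1, 8 of 20 were higher and 2 lower than in CD8 T cells (median 1.49). Ikzf4 (Eos), a co-repressor of FOXP3, was at 58.5 CPM in 41 cells, with ratios of 2.57 (1.53 to 4.53) over CD4 and 8.09 (4.94 to 13.8) over CD8 T cells. Maf, a factor that drives Il10, was at 197 CPM in 66 cells, with ratios of 1.89 (1.47 to 2.45) and 6.52 (5.10 to 8.40). Gata3 and Rora, linked to tissue regulatory T cells, were at 2.08 (1.57 to 2.74) and 2.45 (2.0 to 3.00) of the CD8 level and at 0.712 (0.531 to 0.954) and 0.719 (0.584 to 0.885) of the CD4 level. The Gata3 ratio over CD8 T cells was 1.90 among cells with at most 5% mitochondrial UMIs and also without cells with Xist or dsredexpress1, and the Rora ratio 1.96 without dividing cells. Batf and Prdm1, factors of effector regulatory T cells, were within 2-fold of both sets, at 164 and 64.5 CPM.

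The Th1 factor Tbx21 was lower than in both, at 0.416 (0.179 to 0.920) and 0.30 (0.145 to 0.561). Tcf7, which keeps T cells in a resting or memory state, had 11 UMIs in 4 of 85 cells, at 0.146 (0.0691 to 0.283) of the CD4 level and 0.218 (0.106 to 0.403) of the CD8 level. Of the resting lymphocyte list, 1 of 9 was higher and 2 lower than in CD4 T cells (median ratio 0.750) and 2 of 10 were higher and 3 lower than in CD8 T cells (median 0.890). Lef1, often paired with Tcf7, was not lower, at 1.68 (0.945 to 3.10) and 2.04 (1.33 to 3.11), the latter being 1.78 with at least 2 Foxp3 UMIs and 1.80 without the cells with Xist or dsredexpress1, where 1 gene of the list was higher than in CD8 T cells.

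Mitosis genes were detected in a larger share of regulatory than of CD4 T cells at unequal depth, and at equal depth the answer depended on the number of UMIs asked for. At least 3 UMIs of 6 mitosis genes were found in 25 of 85 regulatory T cells (29.4%, interval 20.02% to 40.3%), 9 of 84 Foxp3-negative CD4 T cells (10.7%, 5.02% to 19.4%) and 53 of 219 CD8 T cells (24.2%, 18.7% to 30.4%). Thinned to 2000 UMIs, at least 1 such UMI was left in 32.5% (22.6% to 43.7%), 13.3% (6.81% to 22.5%) and 26.9% (21.2% to 33.3%). At least 3 were left in 12 of 83 regulatory T cells (14.5%, 7.70% to 23.9%), 4 of 83 CD4 T cells (4.82%, 1.33% to 11.9%) and 25 of 219 CD8 T cells (11.4%, 7.53% to 16.4%), so at equal depth the intervals of regulatory and CD4 T cells were just apart at 1 UMI and overlapped at 3, and those of regulatory and CD8 T cells overlapped at both. In macrophages the shares with at least 3 UMIs at full depth and with at least 1 and at least 3 after thinning were 49.1%, 35.9% and 15.5%. Of 15 cell cycle genes, 10 were at least 2-fold higher than in CD4 T cells and none lower, at a median ratio of 2.55, while none of 15 passed either way against CD8 T cells, at a median of 1.17. Without the cells with Xist or dsredexpress1, 1 of 15 was higher than in CD8 T cells. Summed per cell, these genes had a median of 1360 CPM in regulatory, 1222 in CD4 and 1389 in CD8 T cells. With cells weighted equally Top2a, Pcna and Hmgb2 were at 1.93, 1.98 and 1.63 of the CD4 level. Without dividing cells Pcna was at 1.07 and Hmgb2 at 0.892. Rrm2, a subunit of ribonucleotide reductase, was at 132 CPM with a CD4 ratio of 18.3 (8.23 to 50.7), against 6 UMIs, and a CD8 ratio of 1.16 (0.954 to 1.41). Mki67 was at 256 CPM in 27 cells, with ratios of 2.86 (2.21 to 3.73) and 1.99 (1.71 to 2.32), the latter being 2.62 without the CD8 T cells with Xist or dsredexpress1.

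**Figure D4:**
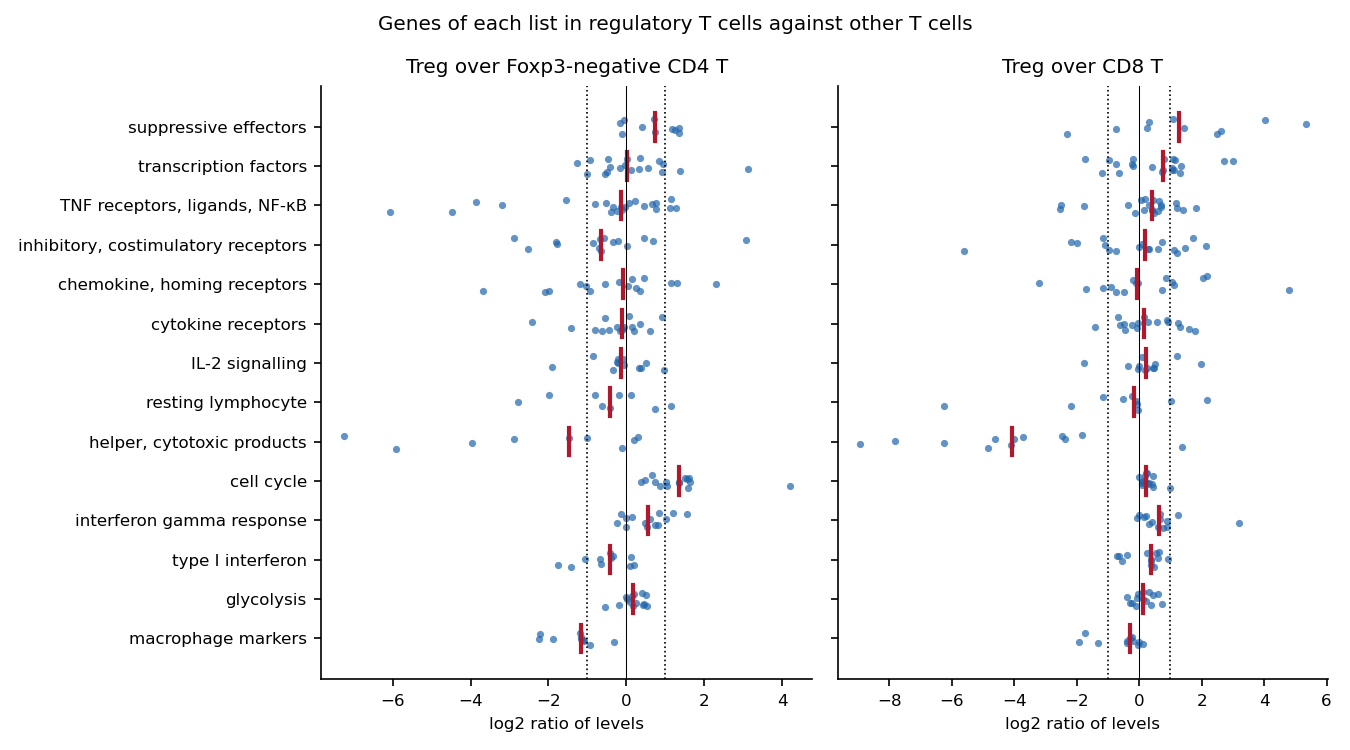
Log2 ratio of levels for each measured gene (points, spread vertically for view) of 14 gene lists, in regulatory T cells over Foxp3-negative CD4 T cells (left) and over CD8 T cells (right), with the list median as a red bar and 2-fold marks dotted. The median of helper and cytotoxic products is 0.360 on the left and 0.0599 on the right, and that of cell cycle genes is past the 2-fold mark on the left (ratio 2.55) and near 1 on the right (1.17).

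Most interferon response genes were within 2-fold of both sets. Of 14 measured interferon gamma response genes, 3 were higher and none lower than in CD4 T cells, at a median ratio of 1.48, and 2 were higher and none lower than in CD8 T cells, at a median of 1.55. The latter count was 1 without the cells with Xist or dsredexpress1. The genes higher than in CD4 T cells were Irf1, Gbp3 and Iigp1. With cells weighted equally Irf1 and Gbp3 were at 1.59 and 1.99 of the CD4 level. Irf1 was at 1.36 with cells thinned to 2000 UMIs and Gbp3 at 1.30 without dividing cells. The immunity-related GTPase gene Iigp1 was at 109 CPM in 39 cells, with ratios of 2.95 (1.98 to 4.51) and 9.24 (6.34 to 13.8). The first was 1.62 with cells weighted equally and 1.58 with cells thinned to 2000 UMIs. Its relative Igtp was at 190.2 CPM, with ratios of 1.79 (1.39 to 2.31) and 2.37 (1.97 to 2.86), the second being 1.96 without those cells, and the receptor chain Ifngr1 was at 453 CPM, with ratios of 1.52 (1.30 to 1.77) and 2.37 (2.10 to 2.67). Of the type I list, none of 11 was higher and 3 were lower than in CD4 T cells (median ratio 0.742), and none of 13 passed against CD8 T cells (median 1.31), or 1 of 12, lower, without the cells with Xist or dsredexpress1.

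Cytokine receptors were mostly within 2-fold of the other T cells. Of 17 cytokine receptors measured, none was higher and 2 were lower than in CD4 T cells (median ratio 0.924), and 4 were higher and 1 lower than in CD8 T cells (median 1.11). Without the cells with Xist or dsredexpress1, 3 of 17 were higher and 1 lower than in CD8 T cells (median 1.08). The IL-18 receptor genes Il18r1 and Il18rap were at 0.376 (0.277 to 0.507) and 0.186 (0.0979 to 0.332) of the CD4 level. The Il18r1 ratio was 0.654 with cells thinned to 2000 UMIs. The IL-1 decoy receptor gene Il1r2 was at 178 CPM in 38 cells, 3.47 times (2.81 to 4.31) the CD8 level (5.40 without the cells with Xist or dsredexpress1) and 1.27 times (1.01 to 1.61) the CD4 level. The IL-33 receptor gene Il1rl1, a marker of tissue regulatory T cells, had 10 UMIs in 7 cells and was too sparse to compare.

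In T cell receptor signalling 3 of 15 genes were lower and none higher than in CD4 T cells (median ratio 0.808), and 2 of 16 lower and none higher than in CD8 T cells (median 0.821), or 1 of 15 lower without the cells with Xist or dsredexpress1. Themis, a regulator of receptor signalling in T cells, was outside the list and far lower, with 5 UMIs and ratios of 0.0461 (0.0146 to 0.112) and 0.0459 (0.0148 to 0.108). Prkcq, the kinase PKC-theta, was at 0.435 (0.248 to 0.749) and 0.379 (0.233 to 0.589), the first being 0.538 with cells weighted equally. None of 14 glycolysis genes and none of 9 class I antigen presentation genes passed the 2-fold mark against either set, with median ratios of 1.13 and 1.09 for the first and 1.02 and 1.11 for the second.

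Outside the lists, Izumo1r (folate receptor 4), a surface marker of regulatory and anergic CD4 T cells, was at 248 CPM in 75 of 85 cells, with ratios of 2.38 (1.87 to 3.06) over CD4 and 11.8 (8.96 to 15.7) over CD8 T cells. The CD4 ratio was 1.76 with C1q under 200 CPM. Snx9, a sorting nexin of endocytosis, was at 102 CPM in 51 cells, with ratios of 7.78 (4.19 to 16.0) and 3.35 (2.53 to 4.44). Rapsn, known as the clustering protein of the acetylcholine receptor, was at 61.1 CPM in 30 cells and 9.08 times (5.90 to 14.3) the level of all other T cells, or 5.15 times where a regulatory T cell needed at least 2 Foxp3 UMIs and the cells with 1 joined the others. The signalling phosphatase gene Dusp4 and the nuclear lamina gene Lmna were at 6.77 (4.68 to 9.96) and 7.30 (5.60 to 9.62) of the CD8 level. Among the lowest, Nrgn had 2 UMIs against 243 in CD4 and 986 in CD8 T cells, Ccl1 had 2 against 168 and 763, and Klrc1, an NK receptor gene, had none against 64 and 330. Single cells held 46.4% and 51.5% of the Ccl1 UMIs of those sets. Without the cells with Xist or dsredexpress1 the Nrgn ratio over CD8 T cells was 0.0186 in place of 0.00531.

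Several ratios moved by over 1.5 times with the treatment of the cells while they stayed past the 2-fold mark. With every cell weighted equally, the ratios over CD4 T cells were 8.41 for Il2ra, 5.25 for Tnfrsf9, 10.8 for Rrm2, 0.280 for Cd226, 0.158 for Prf1, 0.148 for Cxcr6, 0.121 for Cd40lg and 0.0933 for Tnfsf11. Those over CD8 T cells were 96.8 for Areg, 38.9 for Il10, 8.62 for Ebi3, 6.87 for Il2ra, 6.78 for Tnfrsf18, 5.77 for Snx9 and 0.362 for Cd226. Il2ra, Tnfrsf9 and Tnfrsf18 were thus further from 1 when deep cells counted no more than others, and Prf1, Cxcr6 and Cd40lg nearer to it. At 2000 UMIs per cell the ratios over CD4 T cells were 4.33 for Fgl2, 4.17 for Gzmb and 0.25 for Ifng. Those over CD8 T cells were 25.4 for Izumo1r, 15.6 for Tnfrsf4, 13.2 for Lmna, 3.52 for Cish, 2.71 for Itgb7, 0.453 for Gzmb, 0.440 for Tcf7, 0.172 for Themis and 0.147 for Ifng. Gzmb thus lay closer to the CD8 level at equal depth than in the summed counts. Without dividing cells the ratios over CD8 T cells were 7.13 for Klrg1, 6.55 for Il1r2, 4.44 for Lmna, 0.181 for Bcl2 and 0.136 for S1pr1, and those over CD4 T cells 0.269 for Tcf7 and 0.0998 for S1pr1. With C1q under 200 CPM the CD4 ratios of Klrg1 and Il10 were 4.56 and 4.39 and the CD8 ratio of Ikzf4 12.3, and without its top cell Socs2 was at 8.09 of the CD8 level.

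RNA of other cell types was present and unequal. The 11 macrophage markers that the gate did not use summed to 1713 CPM (1638 to 1790) in regulatory T cells, 3386 (3263 to 3513) in Foxp3-negative CD4 T cells, 1758 (1712 to 1806) in CD8 T cells and 18234 in macrophages. Per cell they ran from 0 through a median of 294 to 28849 CPM in regulatory T cells and from 0 through 318 to 26143 CPM in CD4 T cells, so single cells stood far above the rest in both sets. Of the 10 measured against CD4 T cells 8 were lower (median ratio 0.445), and of 11 against CD8 T cells 3 were lower (median 0.808). Genes that macrophages make, such as Cxcl10, Ccl2, Ccl12 and Spp1, were likewise at 0.0813, 0.107, 0.102 and 0.0421 of the CD4 level. Single cells held 47.7%, 45.1%, 77.2% and 37.1% of their UMIs in the CD4 T cells. Against CD4 T cells 573 genes passed the 2-fold mark, 547 with C1q under 200 CPM, 592 with the free RNA profile subtracted and 675 without the top cell of each gene. The part of macrophage RNA in single differences was not tested apart from these alternatives.

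Dendritic cell markers summed to 9608 CPM in regulatory T cells, 7560 in CD4 T cells and 4518 in CD8 T cells, and 10997 of the 11164 UMIs in regulatory T cells were of the class II genes H2-Ab1, H2-Aa and Cd74, which macrophages share. Of the dendritic markers, 1 of 5 was higher and none lower than in CD4 T cells (median ratio 1.28). Against CD8 T cells 4 of 6 were higher and none lower (median 2.14), or 2 of 6 without the cells with Xist or dsredexpress1 (median 1.96). The source of these transcripts was not tested. Xcr1 was at 0 and Clec9a had 1 UMI. One regulatory T cell with 1 Foxp3 UMI and 12 CD3 UMIs held 53 of 56 Fscn1 UMIs, 32 of 55 Ccr7 UMIs and 200 of 422 Fabp5 UMIs, so the levels of these 3 genes rest largely on a single barcode. Melanoma markers summed to 17.2 CPM in regulatory T cells and 946 in undefined T cells. NK markers summed to 877 CPM against 1484 in CD4 T cells and 924 in CD8 T cells, with Ncr1 and Klra8 at 0. The same NK list summed to 7458 CPM in macrophages, so its sum is not particular to NK cells.

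Spatial barcode shares of the regulatory T cells overlapped those of the other T cells within counting error. By the rule of at least 10 counts and 2 times the next barcode, 39 of 85 cells could be assigned: 29 to ZC3 (74.4%, 57.9% to 87.0%), 6 to ZC1 (15.4%) and 4 to ZC2 (10.3%). ZC3 took 72.5% (56.1% to 85.4%) of assigned Foxp3-negative CD4 T cells, 63.3% (52.5% to 73.2%) of CD8 T cells and 99.1% (98.5% to 99.5%) of macrophages. ZC3 also made up 58.0% of spatial counts in barcodes of 10 to 100 gene UMIs. When counts were set against that background, 59 cells could be assigned and the order turned: 45.8% ZC1, 32.2% ZC2 and 22.03% ZC3. This rule also asked for other limits, at least 30 spatial counts in all and 1.5 times the next barcode. The background and the limits were not changed apart. Macrophages kept ZC3 first at 56.3%. The sources used here do not say which tumour region each barcode marked, and genes were not compared between barcodes. The first rule assigned 6 cells to ZC1 and 4 to ZC2, and the second assigned 27 to ZC1, 19 to ZC2 and 13 to ZC3.

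**Figure D5:**
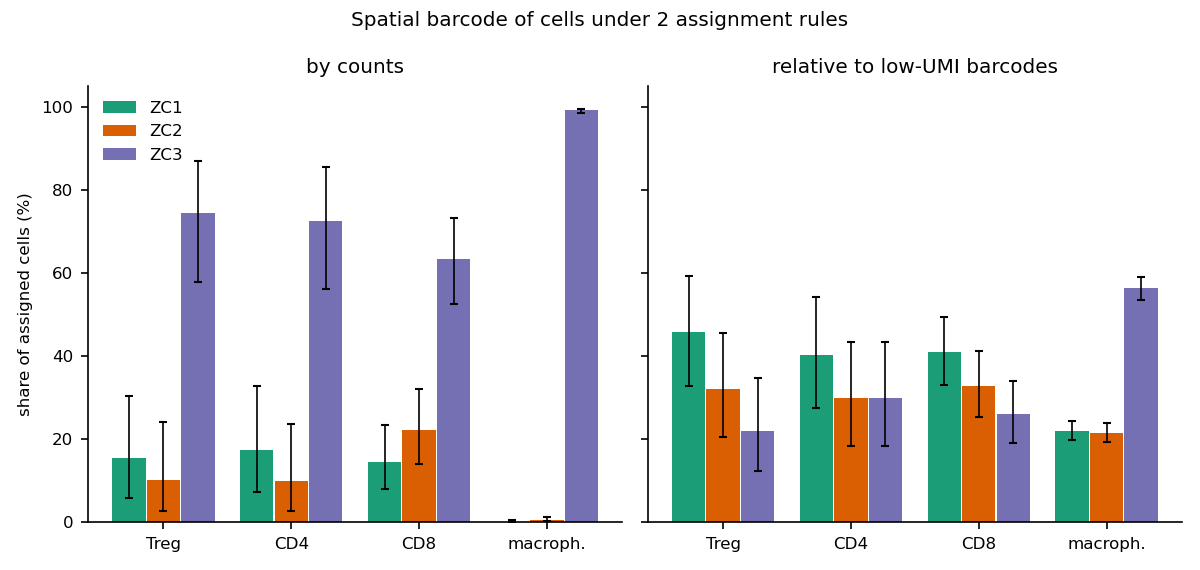
Share of assigned cells (percent, from 0) with each spatial barcode in 4 sets, under the rule on counts (left) and relative to barcodes of 10 to 100 UMIs (right), with exact binomial intervals. The intervals of regulatory T cells overlap those of CD4 and CD8 T cells under both rules, and ZC3 is the most common barcode of regulatory T cells on the left (74.4%) and the least common on the right (22.03%).

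The regulatory T cells were also divided by 8 genes of activated and 8 of resting regulatory T cells, counted at 2000 UMIs per cell. This gave 49 activated and 17 resting cells, 17 ties and 2 cells too shallow to use. Activated cells had a median of 4 activation UMIs and resting cells a median of 2 resting UMIs, and 14 activated and 11 resting cells were on their side by 1 UMI. Of 3797 genes compared between the sides 6.4% passed the 2-fold mark, 3.85% higher and 2.55% lower. Of these 243 genes only 34 passed in the same direction when the thinning was drawn again, and 43 passed in the opposite direction. No gene difference between the sides is therefore given.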

How the data were processed

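A single suspension of tumour immune cells gave a gene expression library and a spatial barcode library. The authors deposited 1 unfiltered matrix of raw UMI counts, made with Cell Ranger 4.0.0 on mm10 per the submitters' processing notes, and its feature kind separates the libraries. It holds 117528298 gene UMIs and 14355102 spatial counts.

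Members and gene lists were chosen with earlier results of these data known. Cells of a set were summed, and levels are CPM with exact Poisson intervals. Ratios carry exact conditional binomial intervals, and shares Clopper-Pearson intervals. In ratios, 0 was replaced by 3 counts for the whole set. PCR copies were already collapsed by UMIs. With 1 library there was no test. Depth limits low genes: 3 counts are 2.58 CPM in the regulatory T cells.

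Named genes are members of the 23 lists (312 genes, of which 2 symbols, Cd244a and Aldoa, were not matched). Outside the lists they are the 12 highest and 12 lowest ratios of each comparison among genes that had 100 or more UMIs in the pair of sets and a UMI in at least 10% of cells of the higher set. Genes of the gate were left out, and the values of some list members are not reported here. Thinning drew 2000 UMIs per cell without replacement. Free RNA was taken from 68497 barcodes of 10 to 100 UMIs. Alternatives changed the cell filters, gates, thinning, cell weighting, gene minimum and free RNA, and 3 were chosen after seeing the data: leaving out cycling cells, the top cell of each gene, and T cells with a UMI of Xist or dsredexpress1. The ratio and interval code was tested on simulated data. The software was matplotlib 3.10.9, pandas 2.3.3, scipy 1.17.1 and numpy 2.4.6 under Python 3.11.15.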

Additional observations from a re-analysis of the deposited data

Results flagged for a closer look

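Foxp3 was also found in barcodes outside the comparisons. Of 144 barcodes with at least 3 CD3 UMIs, at most 1 CD8 UMI and C1q at or above 1000 CPM, 56 had a Foxp3 UMI (38.9%, interval 30.9% to 47.4%), against 8 of 2438 macrophages (0.328%). Their median depth was 39872.5 UMIs, and 49 of the 56 carried at least 4 of the 5 other regulatory T cell markers. The C1q limit left out 39.7% of CD8-low barcodes with CD3 and Foxp3, 36.3% of those with CD8, 35.9% of those with Cd4 and no Foxp3 and 31.5% of the undefined ones. Under the limit, the same CD3 and CD8 limits held 85 cells with a Foxp3 UMI. Beside them stood 84 Foxp3-negative CD4 T cells and 89 undefined T cells, so Foxp3 was common on both sides of the limit.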

How the results depend on the processing

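The regulatory T cell share of T cells was 21.5% with at most 5% mitochondrial UMIs and 12.5% with at least 2 Foxp3 UMIs. Genes past 2-fold numbered 495 and 379 against all other T cells, 135 and 173 against CD4 T cells and 336 and 300.0 against CD8 T cells, with cells thinned to 2000 UMIs and with at least 100 UMIs over both sets. Both settings compare fewer genes. Without dividing cells 360.0 passed against CD4 T cells. Of the genes past 2-fold against all other T cells, 303 of 972 were higher, against 221 of 495 when thinned. Against CD4 T cells 294 of 573 were higher, against 85 of 135 when thinned. Against all other T cells 656 of 1424 were higher with cells weighted equally, and against CD8 T cells 361 of 881 without the top cell of each gene, in place of 426 of 796. Between activated and resting cells the count was 725 with another seed, 918 with sides from all UMIs and 586 without the top cell of each gene. Spatial shares were 45.8% ZC1, 32.2% ZC2 and 22.03% ZC3 relative to low-UMI barcodes, and 0% ZC2 and 87.5% ZC3 under a minimum of 30 counts and a 3-fold lead over the next barcode. Directions turned for the melanoma marker median against other T cells (1.17 without top cells), the helper and cytotoxic median against CD4 T cells (1.13 thinned) and between activated and resting cells (0.905 from all UMIs), and Hmgb2 against CD4 T cells (0.892 without dividing cells). The cause of these shifts was not tested. Among single gene ratios under the alternatives, 3716 stayed within the counting interval of the reported value, 498 lay outside it and 1 changed direction. The first count includes ratios that could not move. The filter of 500 UMIs and 250 genes kept the same cells (314 ratios), and the minimum of 100 UMIs only dropped genes (263 ratios). Outside the interval were 131 ratios with cells thinned to 2000 UMIs, against 84 within. With cells weighted equally these were 106 against 208, and without dividing cells 111 against 186. No paired analysis was possible because there is 1 library of each kind.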

Other observations

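Ighm, the immunoglobulin mu heavy chain gene of B cells, was at 284 CPM in 67 of 85 regulatory T cells, with ratios of 5.16 over Foxp3-negative CD4 (2.73 thinned to 2000 UMIs) and 6.80 over CD8 T cells. Macrophages held 155 CPM and barcodes of 10 to 100 UMIs 124 CPM. The B cell genes Cd79a and Ms4a1 were at 0 in the regulatory T cells. The immunoglobulin light chain gene Igkc was present, with 110 UMIs (94.7 CPM) in 18.8% of regulatory T cells. Its ratio over Foxp3-negative CD4 T cells was 13.2 (5.87 to 36.7), against 6 UMIs. A single regulatory T cell held 33.6% of the 110 UMIs. The source of the Ighm and Igkc transcripts was not tested.

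Xist, the X inactivation RNA, had no UMI in the regulatory T cells or the Foxp3-negative CD4 T cells and 706 UMIs in the CD8 T cells, where 17.4% of cells had one. The reporter transcript dsredexpress1 likewise had none in the regulatory T cells and 265 UMIs in the CD8 T cells, where 17.8% of cells had one.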
